A study of Homo sapiens with 4 samples.

Results

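The nuclear genes of the mitochondrial respiratory chain were examined in 2 human hepatocellular carcinoma cell lines, Huh7 and Huh1, by RNA sequencing. Members were taken by symbol: every transcript whose name starts with NDUFA, NDUFB, NDUFC, NDUFS, NDUFV, UQCR, COX4 to COX8 or ATP5, plus SDHA, SDHB, SDHC, SDHD and CYC1, without the NDUFAF assembly factors. The rule took 88 of the 18398 RefSeq transcripts listed in each library. Of these, 37 belong to complex I, 4 to complex II, 10 to complex III, 18 to complex IV and 16 to complex V, the ATP synthase. NDUFA4 and its paralog NDUFA4L2 were counted with complex IV, where the protein NDUFA4 is found. The 3 others bear such names but are no structural subunits: ATP5S is a coupling factor, ATP5SL a complex I assembly protein and COX4NB a part of the endoplasmic reticulum membrane complex. Symbols are the older ones used in the files.

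There were 4 libraries, 1 for each combination of line and siRNA, so no group had a replicate: Huh7 with ODC1 siRNA, Huh7 with a negative control siRNA (NC), Huh1 with ODC1 siRNA and Huh1 with NC siRNA. All cells were transfected, and no untransfected cells were analysed here. The ODC1 protein, ornithine decarboxylase, makes putrescine, the first step in building polyamines. The siRNA sequences and the hours after transfection are not given in the labels. Each line stands for 1 tumour-derived cell population, and nothing in the labels says that libraries came from separate cultures.

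The respiratory chain passes electrons from NADH and succinate to oxygen and stores the energy as a proton gradient, which ATP synthase uses. Complex I takes electrons from NADH and complex II takes them from succinate, both hand them to ubiquinone, complex III passes them to cytochrome c, and complex IV delivers them to oxygen. Complexes I, III, IV and V combine subunits encoded in the nucleus with a few encoded in mitochondrial DNA, whereas complex II is wholly nuclear. Hepatocytes are rich in mitochondria. None of the mitochondrially encoded subunits was among the listed transcripts, so the other partner of the assembly was not analysed here.

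Sequencing depth, recovered from the smallest steps in the values, lay between 10215332 and 13384836 reads per library. ODC1 stood at 7.50 RPKM with ODC1 siRNA and 167 RPKM with NC siRNA in Huh7, so that 4.49% was left. In Huh1 it stood at 25.01 RPKM with ODC1 siRNA and 103 RPKM with NC siRNA, so that 24.2% was left. RPKM are reads scaled to transcript length and to sequencing depth. The 10 hepatocyte marker genes were all measured, and their summed level was 1984 and 2503 RPKM in Huh7 with ODC1 and NC siRNA, against 4659 and 5355 RPKM in Huh1. ALB alone gave 920 and 1166 RPKM in Huh7 and 2806 and 3447 RPKM in Huh1. With either siRNA, TTR, APOC3 and FGB stood higher in Huh7 and the other 7 lower. AFP, the fetal serum albumin relative, was at 687 and 865 RPKM in Huh7 and at 23.8 and 24.8 RPKM in Huh1. The 10 listed marker genes of leukocytes, endothelium and fibroblasts summed to 389 and 297 RPKM in Huh7, mostly COL1A1 and LUM, against 41.8 and 36.3 RPKM in Huh1. Of the myeloid markers, CD68 was at 6.05 and 3.71 RPKM in Huh7 and 24.8 and 23.3 RPKM in Huh1, and LYZ at 15.3 and 11.1 RPKM in Huh7 and 1.36 and 0.855 RPKM in Huh1. PTPRC, a marker of leukocytes in general, reached at most 0.147 RPKM, and the endothelial gene CDH5 was listed at 0 in all 4 libraries.

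Respiratory subunit genes stood among the more abundant transcripts. Their summed level made up 2.38% and 2.28% of all RPKM in Huh7 with ODC1 and NC siRNA, against 2.54% and 2.47% in Huh1. At least 1 RPKM in any library, the filter used for the tests, was reached by 81 of the 88 members. Over these 81, the median was 82.7 and 79.6 RPKM in Huh7 and 88.96 and 87.6 RPKM in Huh1, where the median over all 12039 genes tested lay between 10.2 and 11.1 RPKM. Their transcripts are short, with a median of 804 bases against 2199 for all tested genes, from recovered or annotated lengths. In bulk RNA, less transcript per cell and fewer cells that carry it cannot be told apart.

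Levels per length differed more between subunits of a complex than the medians did between libraries, complex II excepted. The median of the 37 complex I genes was 69.0 and 62.9 RPKM in Huh7 and 71.1 and 69.7 RPKM in Huh1. The medians of complex II, between 52.5 and 81.9 RPKM, and complex III, between 59.5 and 78.3 RPKM, were of the same order. Complex IV stood higher, at 170 and 156 RPKM in Huh7 and 258 and 248 RPKM in Huh1. Complex V stood at 201 and 203 RPKM in Huh7 and at 146 and 164 RPKM in Huh1. The order of the last pair therefore differed between the lines, with complex V the higher in Huh7 and complex IV the higher in Huh1.

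**Figure D1:**
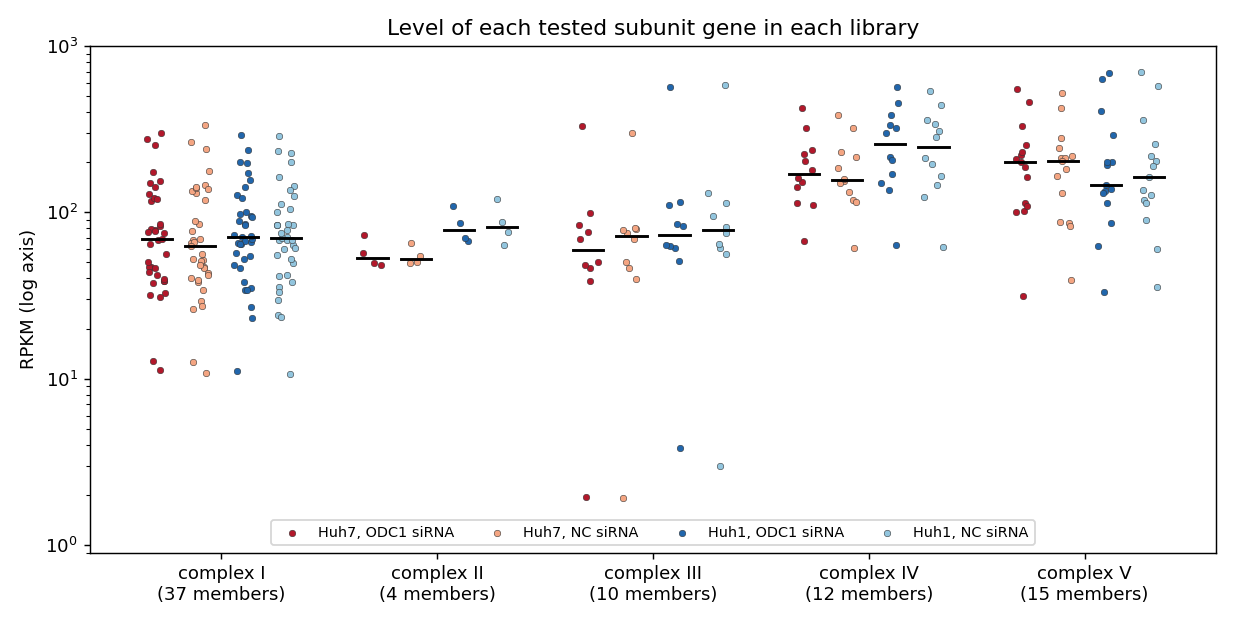
Level of each tested subunit gene (RPKM, log axis) by complex, with 1 point per gene and 1 column per library, and the horizontal bar at the median. Complexes IV and V lie above complexes I to III in each library, and in all but complex II the genes of a complex spread more widely than its medians shift between libraries.

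The most abundant complex I transcripts by mean level were NDUFS5, at 255 and 241 RPKM in Huh7 and 292 and 286 RPKM in Huh1, NDUFA13 and NDUFV2. The order differed by line: NDUFA13 and NDUFV2 stood above NDUFS5 in Huh7, whereas in Huh1 NDUFS5 was followed by NDUFA1, at 236 and 227 RPKM, and NDUFB9, at 201 and 233 RPKM. In complex II, SDHD, a membrane anchor, and SDHA, the flavoprotein that oxidises succinate, led in Huh1, and the iron-sulfur subunit SDHB led in Huh7. UQCRH, the hinge protein of complex III, was at 330 and 298 RPKM in Huh7 and 566 and 581 RPKM in Huh1, and was the top gene of its complex. UQCRC1, a core protein, and CYC1, cytochrome c1, came next with means of 97.9 and 97.6 RPKM. COX7C led complex IV with 423 and 385 RPKM in Huh7 and 566 and 534 RPKM in Huh1, ahead of COX6A1 and COX4I1. ATP5B, the catalytic beta subunit, led complex V with 550 and 521 RPKM in Huh7 and 688 and 696 RPKM in Huh1, ahead of ATP5E, the epsilon subunit, and ATP5J2. The weakest subunit genes that passed the filter were UQCRHL, at 1.94 and 1.92 RPKM in Huh7 and 3.85 and 3.0 RPKM in Huh1, and NDUFV3, with a mean of 10.9 RPKM. UQCRHL is an intronless copy of UQCRH, so reads of the pair may be shared and its value is uncertain.

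Tissue-specific isoforms of complex IV were nearly silent. COX4I2, COX6A2 and COX8C, isoforms of lung, of heart and muscle and of testis, were listed at 0 in all 4 libraries. At their lengths 3 reads, the limit that a count of 0 allows in 1 library, come to between 0.323 and 0.667 RPKM, so lower levels were not detectable at this depth. COX7A1, the heart and muscle form, was at 0.128 and 0.323 RPKM in Huh7 and 0.507 and 0.098 RPKM in Huh1. COX7B2 was at 0 and 0.151 RPKM in Huh7 and 0.492 and 0.275 RPKM in Huh1, and NDUFA4L2 stayed between 0.276 and 0.377 RPKM. Their ubiquitous or liver counterparts were abundant: COX4I1 had 319 and 320 RPKM in Huh7 and 336 and 339 RPKM in Huh1, and COX7A2 had 161 and 158 RPKM in Huh7 and 150.4 and 146 RPKM in Huh1. COX7A2L, a relative that acts in supercomplexes, stood between 60.7 and 67.3 RPKM. Together with ATP5L2, a copy of ATP5L at 0.518 RPKM or less, these 7 genes did not pass the filter and were not tested.

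Promoter sequences were compared next, because nuclear respiratory genes are known to share binding words for NRF1, for ETS factors such as GABP and for YY1. The RefSeq table of build GRCh38.p14, with 250 bases before and 50 after each start, held 70 of the 88 members, 66 of them among those tested. The NRF1 word GCGCATGC, on either strand, was in 13 of these 66 (19.7%), against 5.63% of 9892 promoters of tested genes. The ETS word CCGGAAG was in 20 (30.3%) against 19.9%, and the YY1 word AAGATGGCG in 8 (12.1%) against 4.12%. At least 1 of these 3 words was in 31 (47.0%) against 26.9%. The GC box word GGGCGGG went the other way, in 17 (25.8%) against 53.5%. A match describes letters in this window and is no evidence of binding.

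The promoters of 4 genes are shown, chosen among the genes with large differences between the lines because they carry such words. Capitals mark the NRF1, ETS and YY1 words on either strand. NDUFA6 (chr22:42090723-42091022, minus strand) holds an NRF1 and a YY1 word, and NDUFA13 (chr19:19515975-19516274, plus strand) an ETS word. SDHD (chr11:112086623-112086922, plus strand) and COX6A1 (chr12:120437863-120438162, plus strand) each hold NRF1 and ETS words, and in SDHD the NRF1 word overlaps its own reverse complement.
NDUFA6: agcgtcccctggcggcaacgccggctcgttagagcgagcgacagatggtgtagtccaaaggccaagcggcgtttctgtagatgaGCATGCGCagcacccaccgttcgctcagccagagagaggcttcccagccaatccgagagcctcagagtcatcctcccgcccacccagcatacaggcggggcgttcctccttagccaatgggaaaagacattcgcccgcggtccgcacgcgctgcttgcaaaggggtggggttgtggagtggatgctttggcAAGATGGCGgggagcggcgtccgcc
NDUFA13: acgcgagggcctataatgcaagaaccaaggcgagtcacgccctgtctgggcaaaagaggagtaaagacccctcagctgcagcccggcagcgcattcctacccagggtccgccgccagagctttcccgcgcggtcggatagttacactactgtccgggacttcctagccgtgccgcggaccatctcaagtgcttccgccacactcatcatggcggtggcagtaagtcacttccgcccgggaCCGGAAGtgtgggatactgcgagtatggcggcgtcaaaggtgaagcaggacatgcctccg
SDHD: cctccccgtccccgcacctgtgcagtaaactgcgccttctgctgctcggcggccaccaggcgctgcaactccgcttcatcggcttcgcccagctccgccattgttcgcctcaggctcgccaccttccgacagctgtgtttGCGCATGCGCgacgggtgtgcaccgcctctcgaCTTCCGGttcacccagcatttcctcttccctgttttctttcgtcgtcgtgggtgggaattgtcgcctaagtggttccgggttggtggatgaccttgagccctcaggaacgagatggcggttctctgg
COX6A1: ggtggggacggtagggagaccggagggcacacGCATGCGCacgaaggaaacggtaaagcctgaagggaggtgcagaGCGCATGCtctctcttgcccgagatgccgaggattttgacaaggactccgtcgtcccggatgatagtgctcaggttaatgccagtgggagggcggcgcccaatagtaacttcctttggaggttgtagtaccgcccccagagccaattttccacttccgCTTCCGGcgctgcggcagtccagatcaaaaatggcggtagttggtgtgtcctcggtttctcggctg

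The first comparison asked which respiratory genes differed between ODC1 and NC siRNA. Differences were small. Within each line no member reached a 1.5-fold difference on the log2(RPKM + 1) scale, a size cut without a test. Of all genes measured in Huh7, 2.53% were at least 1.5-fold higher and 3.16% lower, and in Huh1 1.01% and 0.367%. The median log2 difference, ODC1 minus NC siRNA, over the 81 members was 0.04 in Huh7 and 0.03 in Huh1, where the medians of all tested genes were -0.002 and 0.017. The members' medians turned to -0.011 in Huh7 and -0.00075 in Huh1 with upper quartile scaling, and to -7.6e-05 in Huh1 with median centring. Those of all tested genes turned to -0.045, -0.0052 and -0.014 in the same order. A difference smaller than 0.2 in size was seen for 56 members (69.1%) in Huh7 and 70 (86.4%) in Huh1, against 58.7% and 74.3% of all tested genes. All tested genes include many weaker ones. Their quartiles were -0.17 and 0.16 in Huh7 and -0.087 and 0.13 in Huh1. Genes with a mean of at least 50 RPKM had -0.12 and 0.14 in Huh7 and -0.098 and 0.089 in Huh1. Members had -0.024 and 0.16 in Huh7 and -0.039 and 0.088 in Huh1.

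Over both lines, limma with Benjamini-Hochberg adjustment called 1 member higher and none lower. Of all 12039 genes, 1.5% were called higher and 0.615% lower, so the 1.2% of members called higher is not above the background. At an unadjusted p under 0.05, 14 of the 81 members stood higher and 6 lower, against 1293 and 993 of the 12039 tested genes. The higher count was 0 under 6 of the 10 other settings (quantile normalization, no filter, a pseudocount of 0.1, a minimum of 5 RPKM, no variance trend and no replicate block). Upper quartile scaling, median centring and subtraction of a length trend each called 1 member lower, and the other settings called 0 lower. In this order they called 188, 168 and 123 of all genes lower. With no filter, no variance trend and no replicate block, 0 of all genes were called.

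Among the members that did not pass, UQCRC2, core protein 2 of complex III, was nearest the threshold. It stood at 48.5 RPKM with ODC1 siRNA and 69.1 RPKM with NC siRNA in Huh7, and at 62.6 and 74.7 RPKM in Huh1. Its log2 differences were -0.50 in Huh7 and -0.25 in Huh1, and limma gave -0.38 (SE 0.082, adjusted p = 0.0576). It is the 1 member called lower under the 3 settings named above. Its partner UQCRC1 was at 84.4 and 79.6 RPKM in Huh7 and 115 and 113 RPKM in Huh1, and limma gave 0.05 (adjusted p = 0.723).

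Next by p came NDUFB1, a small accessory subunit of complex I, at 82.7 and 66.7 RPKM in Huh7 and 84.6 and 70.6 RPKM in Huh1 (limma log2 difference 0.28, adjusted p = 0.0738). ATP5L, subunit g in the membrane part of ATP synthase, was at 108 and 86.8 RPKM in Huh7 and 131 and 113 RPKM in Huh1 (0.26, limma adjusted p = 0.087). NDUFB10 stood lower, at 37.6 and 46.6 RPKM in Huh7 and 71.7 and 84.1 RPKM in Huh1 (-0.26, limma adjusted p = 0.101). CYC1 was at 69.1 and 80.0 RPKM in Huh7 and 110 and 131 RPKM in Huh1 (-0.23, limma adjusted p = 0.112). In each of these 4 genes both lines moved the same way, which their choice by low p favours, and none passed the threshold.

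By complex, the median log2 differences stayed close to 0. They were 0.04 in Huh7 and 0.05 in Huh1 for complex I, 0.07 and -0.07 for complex II, 0.01 and -0.03 for complex III, 0.05 and 0.05 for complex IV, and 0.08 and 0.02 for complex V. Within complex V the 3 membrane genes ATP5I, ATP5J2 and ATP5L had a median of 0.25 in Huh7 and 0.17 in Huh1, and the 4 stalk genes 0.23 and 0.07. ATP5I, subunit e, differed from the other two, at 187 and 181 RPKM in Huh7 and 146 and 164 RPKM in Huh1 (0.04 and -0.17 on the log2 scale). ATP5J2, subunit f, was at 332 and 279 RPKM in Huh7 and 405 and 361 RPKM in Huh1 (limma log2 difference 0.21, adjusted p = 0.106). ATP5H, the stalk subunit d, had a like difference (0.21, limma adjusted p = 0.111). The 5 genes of the F1 head had medians of 0.04 and -0.07. The catalytic subunits of complexes II and III other than CYC1 also did not pass: limma gave 0.09 for SDHA (adjusted p = 0.562), 0.11 for SDHB (0.419) and -0.06 for the Rieske protein gene UQCRFS1 (0.697).

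The sign of the difference was the same in both lines for 64 of the 81 members (79.0%), 43 positive and 21 negative, against 64.1% of all tested genes. The lines share no library in this comparison. In 17 members the lines went opposite ways. The difference between the lines in the siRNA effect was not tested, since it is the single residual degree of freedom of the fit.

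**Figure D2:**
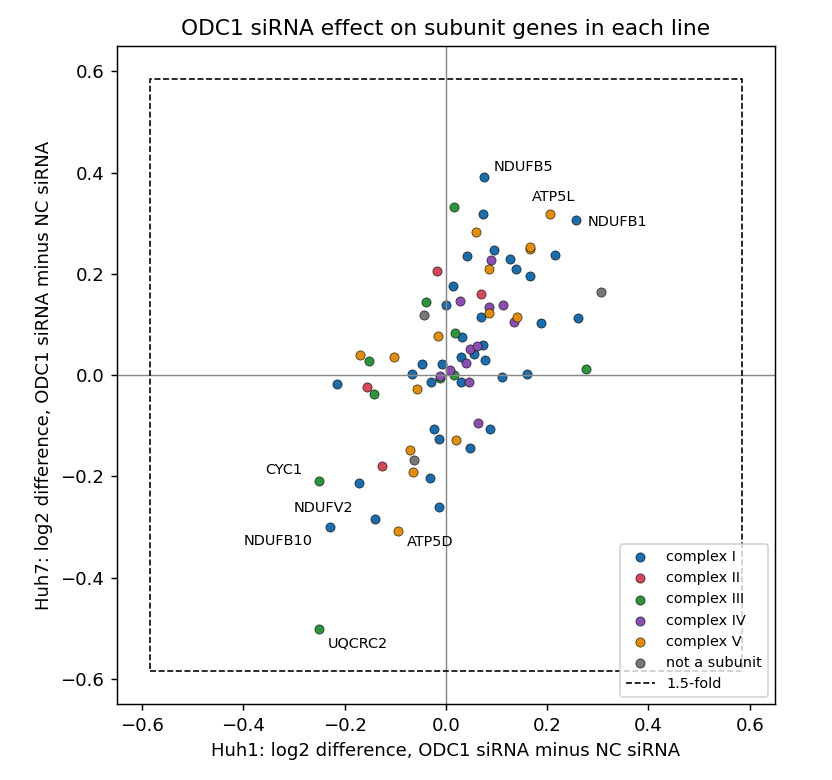
Log2 difference, ODC1 minus NC siRNA, in Huh1 (x axis) and Huh7 (y axis) for 80 of the tested members, coloured by complex, with the dashed box at 1.5-fold. All points lie inside the box, with UQCRC2 at the lower left (-0.25 in Huh1, -0.50 in Huh7).

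Genes that serve the chain from outside it were read from lists. CYCS, cytochrome c itself, which carries electrons between complexes III and IV, was at 95.03 and 66.0 RPKM in Huh7 and 71.2 and 57.4 RPKM in Huh1. It rose by 0.41 (SE 0.077, limma adjusted p = 0.0402) and was the 1 gene called among 17 electron carriers and ubiquinone synthesis genes.

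Assembly factors did not pass. Among 14 of complex I and 36 of complexes II to V, limma called none higher and none lower. At an unadjusted p under 0.05, 0 of the 14 were higher and 2 lower for complex I, and 6 of the 36 higher and 5 lower for the others. Of all 12039 tested genes, 1293 were higher and 993 lower at this cut. The nearest was SDHAF1, an assembly factor of complex II, at 7.70 and 5.65 RPKM in Huh7 and 11.4 and 6.47 RPKM in Huh1 (limma adjusted p = 0.0576). The 12 regulators of respiratory genes, among them TFAM, NRF1, GABPA and PPARGC1A, also had 0 calls, with 0 higher and 2 lower at an unadjusted p under 0.05. So did the 4 genes of ATP and phosphate carriers and the ATPase inhibitor, with 0 either way. Of 75 mitochondrial ribosomal protein genes, MRPL3 fell by 0.52 (limma adjusted p = 0.026) and MRPS22 by 0.43 (0.0336), and of 92 cytosolic ones RPL26L1 rose by 0.58 (0.0221). Among cell type markers, ALB fell by 0.32 (limma adjusted p = 0.0232), while TTR rose by 0.47 (0.0494) and the fibroblast marker LUM by 0.39 (0.0403). These 7 calls outside the chain, CYCS included, were not stable: each held under between 3 and 5 of the 10 other settings and was lost with no replicate block, no filter and no variance trend, with limma adjusted p up to 1.00. With the variance trend set by counting only MRPL3 of the 7 was called (limma adjusted p = 0.0481), while the others lay between 0.0563 and 0.129.

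The second comparison asked how the lines differ. Respiratory genes stood lower in Huh7 more often than higher. Over both siRNAs, limma with Benjamini-Hochberg adjustment called 19 of the 81 members higher in Huh7 than in Huh1 (23.5%) and 47 lower (58.0%). Of all tested genes, 43.1% were called higher and 30.8% lower, so in this fit the balance of the members was the reverse of the background. The background itself depended on the setting. With a length trend subtracted, 4319 of all genes were called higher and 4427 lower, beside 17 and 50 members. With quantile normalization these counts were 4359 and 4265, beside 19 and 45 members. The median log2 difference, Huh7 minus Huh1, was -0.25 over members and 0.13 over all genes. The error behind these p-values is what the line and siRNA terms leave unexplained, on 1 residual degree of freedom moderated over all genes. Variation from tumour to tumour has no part in this error. The libraries of a line differ in siRNA and may come from 1 culture.

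The large differences were few. With ODC1 siRNA, 5 members were at least 2-fold higher in Huh7 and 4 at least 2-fold lower, or 6.2% and 4.9% of 81, where 16.2% and 11.1% of all measured genes were. With NC siRNA these counts were 3 and 3 (3.7% each), where 17.0% and 10.2% of all measured genes were.

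The complexes differed in their balance. In complex I, 10 of 37 genes were called higher and 20 lower, with a median log2 difference of -0.22. In complex II, 3 of 4 were called lower (median -0.60), and in complex III 9 of 10 were called lower and 1 higher (median -0.45). In complex IV, 8 of 12 were called lower (median -0.47). With no filter, 12 genes were called lower in complex I, and 6 lower and 0 higher in complex III. No gene of complexes II and IV was called higher by limma, or stood higher at an unadjusted p under 0.05, and the count was 0 under each of the 10 other settings. Complex V was split, with 6 of 15 called higher and 6 lower. That split moved to 3 higher and 6 lower with median centring, 4 and 6 with a length trend subtracted, 3 and 5 with no variance trend, 2 and 2 with no filter, 4 and 4 with no replicate block, and 6 and 3 with quantile normalization. Its median was 0.03, and turned to -0.05 under upper quartile scaling, -0.07 under median centring and -0.01 with a length trend subtracted. The medians of complexes I to IV stayed negative under each of the 10 settings. Of these, no filter, no replicate block, no variance trend and the trend on counting variance could not move the medians. A minimum of 5 RPKM moved only that of complex III.

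**Figure D3:**
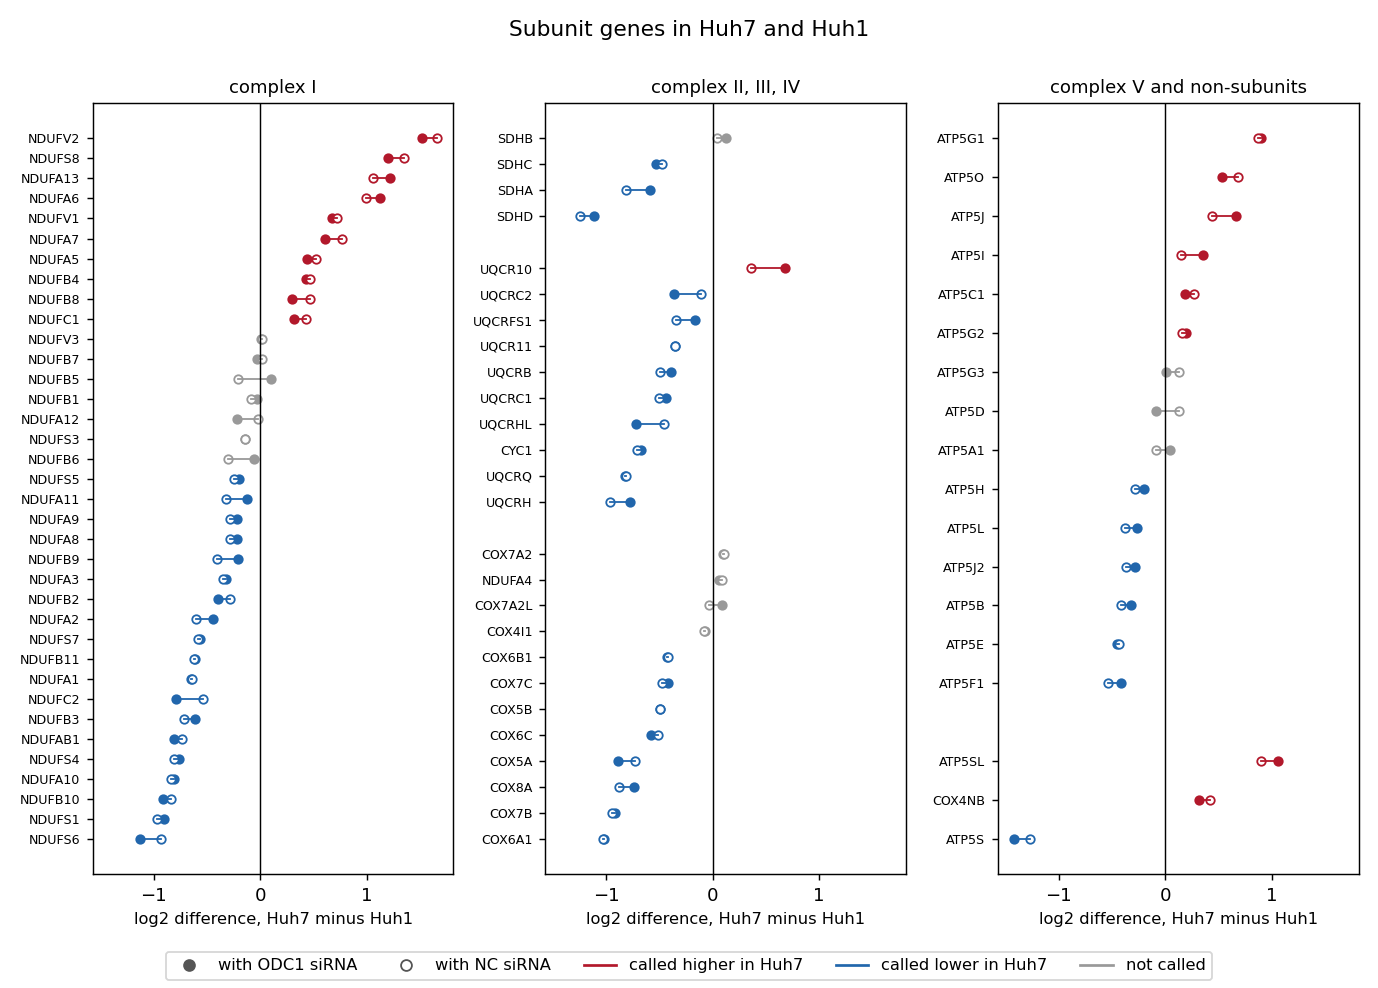
Log2 difference, Huh7 minus Huh1, of 80 tested members, with filled points for ODC1 siRNA, open points for NC siRNA and the colour giving the limma call. Most genes of complexes II, III and IV lie left of 0, whereas complex I runs from NDUFS6 to NDUFV2, with fitted differences of -1.03 and 1.59, and complex V falls on both sides.

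Complex I held both the genes furthest up and several of those furthest down. NDUFV2, an iron-sulfur subunit of the NADH-oxidising arm, was at 274 and 335 RPKM in Huh7 with ODC1 and NC siRNA, against 95.2 and 105 RPKM in Huh1. NDUFV2 was higher by 1.59 (log2, SE 0.065, limma adjusted p = 1.12e-07). NDUFS8, an iron-sulfur subunit of the ubiquinone-reducing module, was at 153 and 142 RPKM in Huh7 and 66.2 and 55.1 RPKM in Huh1, higher by 1.27 (SE 0.070, limma adjusted p = 6.68e-07). NDUFV1, which binds NADH and the flavin cofactor, was at 142 and 139 RPKM in Huh7 and 88.96 and 84.3 RPKM in Huh1 (0.70, limma adjusted p = 1.59e-05).

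Other core subunits of the same arm were lower. NDUFS1, the iron-sulfur subunit next to NDUFV1 and NDUFV2, was at 38.7 and 38.1 RPKM in Huh7 and 73.0 and 75.5 RPKM in Huh1. It was lower, at -0.93 on the log2 scale (SE 0.072, limma adjusted p = 5.22e-06). NDUFS7, an iron-sulfur subunit next to ubiquinone, was also lower, at -0.57. NDUFS3 was not called (-0.14, limma adjusted p = 0.0916).

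Among the 30 accessory genes of complex I, 7 were called higher and 17 lower. NDUFA13, also known as a cell death regulator, was at 298 and 263 RPKM in Huh7 and 127 and 126 RPKM in Huh1 (1.14, SE 0.066, limma adjusted p = 8.71e-07). NDUFA6 was at 84.7 and 76.8 RPKM in Huh7 and 38.1 and 38.1 RPKM in Huh1 (1.06, SE 0.075, limma adjusted p = 2.92e-06). NDUFA7, NDUFA5, NDUFB4, NDUFB8 and NDUFC1 were higher by between 0.37 and 0.69. NDUFS6 was furthest down, at 78.4 and 84.5 RPKM in Huh7 and 172 and 162 RPKM in Huh1 (-1.03, SE 0.072, limma adjusted p = 2.7e-06). NDUFB10, NDUFA10, NDUFS4, the acyl carrier protein gene NDUFAB1, NDUFB3, NDUFC2, NDUFA1, NDUFB11 and NDUFA2 lay between -0.88 and -0.52. NDUFB2, NDUFA3, NDUFB9, NDUFA8, NDUFA9, NDUFA11 and NDUFS5 were also lower, between -0.34 and -0.22. NDUFV3, NDUFB7, NDUFB5, NDUFB1, NDUFA12 and NDUFB6 were not called. RefSeq lists MRPL36 across the span of NDUFS6.

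In complex II the membrane anchor SDHD was at 49.6 and 50.4 RPKM in Huh7 and 108 and 121 RPKM in Huh1. It was lower, at -1.18 on the log2 scale (SE 0.071, limma adjusted p = 1.15e-06). SDHA was at 57.1 and 49.4 RPKM in Huh7 and 86.5 and 87.6 RPKM in Huh1 (-0.70, limma adjusted p = 5.24e-05), and SDHC, the other anchor, had -0.50. SDHB was at 73.5 and 65.7 RPKM in Huh7 and 67.2 and 64.01 RPKM in Huh1 and was not called (0.08, limma adjusted p = 0.31). In Huh1 SDHD was thus the highest of the 4 and SDHB the lowest, and in Huh7 SDHB was the highest.

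In complex III, UQCR10, a small accessory subunit, was the 1 gene called higher, at 98.9 and 78.4 RPKM in Huh7 and 61.4 and 60.7 RPKM in Huh1 (0.52, limma adjusted p = 0.000612). CYC1 was lower, at -0.69 on the log2 scale, as were UQCRC1 at -0.47, UQCRFS1 at -0.25 and UQCRC2 at -0.23. UQCRH and UQCRQ had the largest negative differences of the complex, -0.87 and -0.82. The remaining genes, UQCR11, UQCRB and the copy UQCRHL, lay between -0.59 and -0.35.

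In complex IV, COX6A1, the liver form of its subunit, was at 223 and 215 RPKM in Huh7 and 454 and 439 RPKM in Huh1 (-1.02, SE 0.056, limma adjusted p = 6.6e-07). COX7B was at 204 and 185 RPKM in Huh7 and 386 and 357 RPKM in Huh1 (-0.93). COX8A, COX5A, COX6C, COX5B, COX7C and COX6B1 were lower, between -0.81 and -0.42. COX4I1, COX7A2, COX7A2L and NDUFA4 lay between -0.08 and 0.10 and were not called. In the called genes, all Huh7 values lay below all Huh1 values, which being called favours. The share of such genes among all tested genes was not counted.

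ATP synthase was split within its parts. In the F1 head, ATP5B and ATP5E were lower (-0.37 and -0.44), ATP5C1, the gamma subunit, was higher (0.23), and ATP5A1, the alpha subunit, and ATP5D, the delta subunit, were not called. In the stalk, ATP5O, the subunit that confers oligomycin sensitivity, and ATP5J were higher (0.61 and 0.55), while ATP5F1 and ATP5H were lower (-0.47 and -0.24). In the membrane part, ATP5I was higher (0.25), and ATP5J2 and ATP5L were lower (-0.33 and -0.32).

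The c-ring is encoded by ATP5G1, ATP5G2 and ATP5G3, which give the same mature protein. ATP5G1 was at 163 and 166 RPKM in Huh7 and 86.5 and 90.0 RPKM in Huh1 (0.89, SE 0.063, limma adjusted p = 3.12e-06). It made up 32.1% and 32.7% of the summed RPKM of the 3 genes in Huh7, against 21.5% and 22.6% in Huh1. ATP5G2 was the highest of the 3 in each library, with 45.4% and 41.7% in Huh7 and 50.2% and 47.6% in Huh1, and was higher by 0.17. ATP5G3 was not called (0.07, limma adjusted p = 0.374). Outside the complex, ATP5SL was at 39.2 and 36.0 RPKM in Huh7 and 18.3 and 18.9 RPKM in Huh1 (0.98, limma adjusted p = 1.13e-05), and COX4NB was higher by 0.37. ATP5S was at 3.12 and 2.68 RPKM in Huh7 and 9.98 and 7.88 RPKM in Huh1 (-1.34, SE 0.12, limma adjusted p = 1.16e-05), and RefSeq lists CDKL1 across its span.

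Other short and abundant genes were read beside these values. Cytosolic ribosomal protein genes had a median log2 difference of -0.23, with 23 of 92 called higher and 54 lower, and mitochondrial ones -0.17, with 15 of 75 higher and 36 lower. The 418 tested genes under 1 kb with a mean of at least 50 RPKM had a median of -0.11. Among members, the 54 under 1 kb had a median of -0.32 and the 27 longer ones -0.14. With a length trend subtracted from the difference, 17 members were called higher and 50 lower, beside 4319 and 4427 of 11869 genes. FTL, the ferritin light chain gene, took 17389 and 18122 RPKM in Huh1, where no gene in Huh7 exceeded 3805 RPKM, and the 10 highest genes held 6.25% and 6.27% of summed RPKM in Huh7 and 10.4% and 11.04% in Huh1. The part of these shares and of the marker levels given above in the line differences was not tested.

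Position along the chromosome was compared last, after the values had been seen. For each member, up to 10 tested genes on either side were taken in RefSeq's gene order, 20 in all except for SDHA with 11, ATP5I with 14 and ATP5J with 18, and their median log2 difference between the lines was set beside the member's own. Across the 81 members Pearson's r was 0.66 and Spearman's rho 0.69, and across 12008 tested genes 0.33 and 0.38. These correlations are across genes, which are not independent replicates, come from the same 4 libraries and share neighbours.

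Several of the genes furthest from 0 had neighbours on the same side. The neighbours of NDUFS8 on chromosome 11 had a median of 1.39, with 17 of 20 above 0, and those of NDUFV1 on the same chromosome 1.41, also with 17 of 20. These windows may hold many of the same genes and do not count as separate cases. For NDUFA13 on chromosome 19 the median was 1.23 and all 20 were above 0, and for NDUFA6 on chromosome 22 it was 0.67 with 19 of 20. At the low end, the neighbours of COX7B on chromosome X had a median of -1.88, with 3 of 20 above 0, and those of NDUFB10 on chromosome 16 had -1.05, with 1 of 20. Genes further down had neighbour medians nearer 0. These were -0.31 for ATP5S (6 of 20 above 0), -0.26 for NDUFS6 (9 of 20), -0.38 for COX6A1 (9 of 20) and -0.34 for NDUFS1 (7 of 20). Of all 12039 tested genes, 6826 stood above 0. Other genes stood apart from their neighbours: SDHD at -1.18 had neighbours with a median of -0.007, UQCRH at -0.87 had neighbours with 0.27, and ATP5G1 at 0.89 had neighbours with -0.15. NDUFV2 at 1.59 exceeded its neighbours on chromosome 18, whose median was 0.49.

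**Figure D4:**
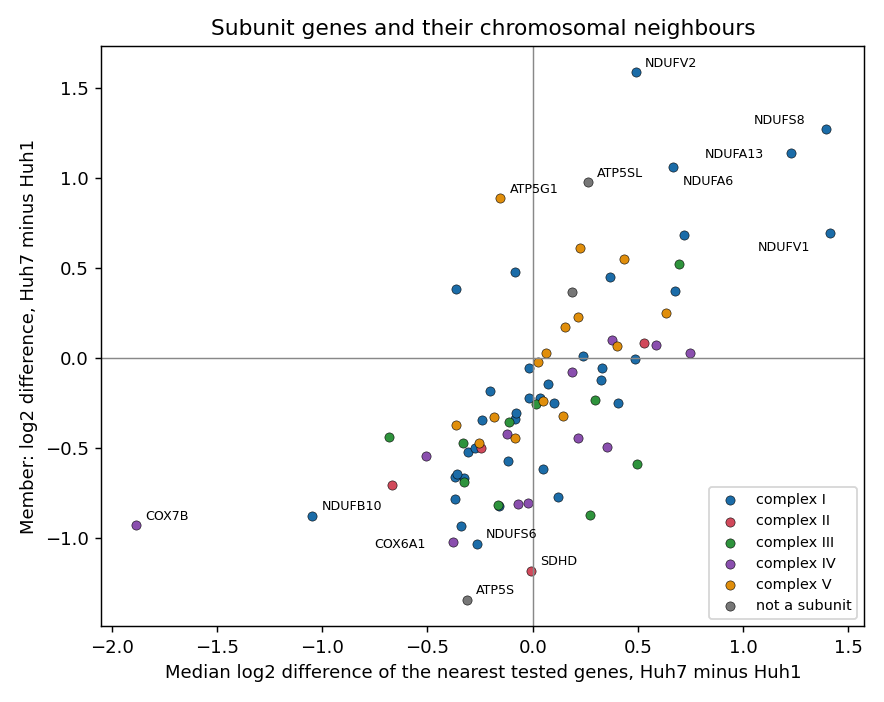
Log2 difference, Huh7 minus Huh1, of each tested member (y axis) against the median of the same difference over its nearest tested genes, up to 10 on either side (x axis), coloured by complex. NDUFS8, NDUFV1 and NDUFA13 lie at the upper right and COX7B and NDUFB10 at the lower left, while SDHD and ATP5G1 lie near the vertical line at 0.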

How the data were processed

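Total RNA of Huh7 and Huh1 cells, transfected with ODC1 or NC siRNA, was the input of TruSeq RNA (Illumina) libraries, as the labels' protocols state. The submitters' processing notes name TopHat2 2.0.9, CASAVA 1.8.2 and the build hg19. How reads were counted, with which annotation and whether by strand, is not given in the sources used here. The authors deposited RPKM values per RefSeq transcript, with no header.

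RPKM are not counts, so no count model was the main test. Depth and transcript lengths were recovered from values that are whole multiples of 1 read (tolerance 0.005 reads). Lengths came from whole reads for 64 of 88 members and otherwise from GENCODE release 29, so read numbers and the floors of 3 reads made from them (counting error only) are approximate. Values were analysed as log2(RPKM + 1), which understates differences of weak genes. With limma 3.58.1 (R 4.3.3), line and siRNA were fitted as terms with an intensity trend to the 12039 genes that reached 1 RPKM in some library, and p-values were adjusted over all of them (Benjamini-Hochberg, threshold 0.05). The 1 residual degree of freedom is moderated over all genes (prior 7.42), so a gene's error rests mostly on other genes, and in data simulated for this design more unchanged genes were called than the nominal threshold allows. The line term serves as the block, since each line gives 1 ODC1 and 1 NC library. Within a line, 1.5-fold, and between lines, 2-fold differences were counted without a test.

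The members, gene lists and rules were chosen with earlier results of these data known. Named genes were ODC1, the 3 most abundant members of each complex, called members, the 5 largest line differences each way, isoform sets, catalytic subunits of complexes II and III, and called genes of the lists; some of these genes are not reported here. Genes beside these in the text, the promoter words and the neighbouring genes were chosen after their values were seen. RefSeq matched 18335 of 18398 rows, all 88 members included, by accession or symbol. Of the tested members, 33 share their span with another RefSeq gene, 17 of them with a protein-coding one, and their reads may be mixed where strand was not used. Pseudogene copies, common for respiratory genes, can take or add reads in the same way.

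Alternatives were quantile normalization, upper quartile scaling, median centring, a length trend subtracted, no filter, a pseudocount of 0.1, a minimum of 5 RPKM, limma without a variance trend, a trend on counting variance, no block, other fold rules, only structural subunits, and each library left out.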

Additional observations from a re-analysis of the deposited data

How the results depend on the processing

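The lines pair the libraries, and the count of members called higher with ODC1 siRNA, 1 as reported, was 0 in the fit with no replicate block and likewise 0 with quantile normalization, no filter, a pseudocount of 0.1, a minimum of 5 RPKM and no variance trend. Upper quartile scaling, median centring and the length trend each called 1 member lower. Members' median siRNA differences in Huh7 were 0.028 with quantile normalization, -0.011 with upper quartile scaling and 0.049 with median centring. In Huh1 they were 0.038, -0.00075 and -7.6e-05 in the same order, and 0.0067 with the length trend. Over both lines they were 0.040, 0.0088, 0.039 and 0.024, against 0.050 as reported. Leaving a library out gave 0.030 or 0.040, which is the median of the other line alone and no separate check. Medians of all tested genes moved too. In Huh1 they were -0.0052 with upper quartile scaling and -0.014 with median centring, against 0.017 as reported. Median centring subtracts the same amount from every gene of a library, and upper quartile scaling divides every gene by the same factor. Both therefore move members and all genes together. The cause of the shifts under the other settings was not tested. Between the lines, no filter gave 11 members higher and 31 lower, in a fit with fewer prior degrees of freedom, and the fit with no replicate block called 58 of the 66. Of all 18398 genes, no filter called 3642 higher and 2426 lower. No replicate block called 7712 of the 12039 tested genes. The members' median line difference over both siRNAs was -0.33 with upper quartile scaling, -0.35 with median centring and -0.36 with the length trend. For all tested genes it was 0.063, 0.041 and -0.011 in the same order, against 0.13 as reported. With ODC1 siRNA the members' median was -0.30 with upper quartile scaling and -0.32 with the length trend. With NC siRNA it was -0.43 with median centring and -0.41 with the length trend. All tested genes had 0.041, -0.0054, 0.030 and -0.014 in the same order. A 1.5-fold rule, looser by construction, gave 10 higher and 21 lower with ODC1 siRNA and 9 higher and 21 lower with NC siRNA. Upper quartile scaling gave 7 lower with NC siRNA at the 2-fold rule. Shares of all genes were not counted for these rules, so the counts have no background beside them. Each alternative kept at least 42 of the 66 members called between the lines. No called member reversed its sign. With 1 library a group, differences within a line have no replicate check, and the depth sets the precision of weak genes such as COX7A1 and COX7B2, which rest on a few reads.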
